A study of Gallus gallus with 19 samples.

Results

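Bulk RNA sequencing (bulk RNAseq) was used here to compare the knockdown side with the control side of chicken embryos. The Nanog, PouV/Oct4 and Klf4 knockdowns were joined into 1 common effect. The libraries were chosen by their labels: a knockdown library and a control library of the same experiment with the same replicate number formed a pair. This gave 8 pairs, or 16 of the 19 libraries of the series: Nanog replicates 1 to 4, PouV replicates 1 and 3, and Klf4 replicates 1 and 3. The labels do not state that equal numbers are the same embryos, so the pairing is an assumption. A check of the pairing, given below, did not bear out pair Nanog 4. The remaining 3 knockdown libraries (PouV MO 4, Klf4 MO 2 and Klf4 MO 4) had no same-numbered control and did not enter the fit.

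All embryos were wild type Gallus gallus. They were electroporated at HH4, the gastrula stage, with a morpholino (MO, a synthetic antisense oligomer) that blocks translation of 1 of the factors (Nanog, PouV or Klf4). The contralateral side received a control MO. Both sides also received an empty pCIG vector as carrier DNA. The tissue was collected at HH7/HH8-, the neural fold stage. Dorsal neural folds, which hold the neural plate border (NPB), were dissected, and the labels give midbrain as the tissue and neural crest (NC) as the cell type. Each library was a pool of several embryos, and the design text and the methods of the study differ on their number. Which body side received the knockdown is not given in the sources used here, so knockdown and body side cannot be told apart. The Nanog MO group thus held 4 libraries with 4 partners, the PouV MO group 2 with 2 and the Klf4 MO group 2 with 2.

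NANOG, POU5F3 (PouV, the chicken counterpart of Oct4) and KLF4 are transcription factors of the network that keeps embryonic stem cells undifferentiated. In the chick ectoderm their genes are transcribed beyond gastrulation, while the NPB is set up between the neural plate and the non-neural ectoderm. The NPB gives rise to the NC, a migratory population that forms craniofacial skeleton, pigment cells and peripheral neurons. The comparison asks which genes change on the knockdown side on average over the 8 pairs, 4 of which are Nanog pairs. A gene can be called in this fit without a change under each of the 3 factors. The series holds targeting MO and control MO libraries and no rescue library. A response to the targeting MOs themselves was therefore not tested apart from the loss of the factors. The common effect can hold both.

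Total counts per library ranged from 31215191 to 44726348 (median 38876844.5), from 31215191 to 42958715 on the control side and from 36452603 to 44726348 on the MO side. The ratio of MO to control total within a pair ran from 0.849 (Klf4 1) to 1.43 (Nanog 4). The level of a gene is given in CPM, counts scaled to the library's total after TMM scaling. In the 8 control libraries OTX2, a forebrain and midbrain gene, was at 117 to 315 CPM, and PAX7, an NPB gene, at 11.2 to 42.4 CPM. Genes of other tissues were present as well, with control means of 126 CPM for KDR (endothelium) and 242 CPM for APOA1 (endoderm). These few genes do not settle the makeup of the dissected tissue. On the first principal component of the log2 CPM values (32.1% of the variance), the Klf4 libraries of both sides were at 20.22 to 54.61. The other libraries were at -32.49 to 7.119. PouV MO 3 stood apart on the second principal component, at -59.97 against -16.59 to 21.5 in the other libraries. The library Nanog MO 4 was high in endoderm markers relative to its partner. Counts of called genes are therefore also given without these pairs.

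In the common fit, 287 of 18857 genes tested were called at an adjusted p-value under 0.05 (1.52% of the genes tested, edgeR quasi-likelihood test with the pair as a block). Of these, 135 were higher (0.716%) and 152 lower (0.806%) on the MO side. Rises were larger than falls, with a median log2 fold change of 0.86 for the genes called higher and -0.42 for those called lower, against 0.01 over all genes tested. A log2 fold change above 1 was reached by 59 of the genes called higher, and one below -1 by 4 of those called lower. Over all genes tested, 51.6% had a log2 fold change above 0. The pairs mostly moved together. Of the 287 genes, 213 had the same direction in all 8 pairs and 72 in 7 of them, whereas 4.26% of all genes tested had 1 direction in all 8 pairs (1.73% higher and 2.52% lower). These directions follow in part from the call itself. The libraries are pools of embryos. With the pair as a block, the p-values measure how much the difference between MO and control side varies from pair to pair. Differences between the 3 targets are part of this spread. In a bulk sample, fewer cells of a type and less RNA per cell cannot be told apart.

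**Figure D1:**
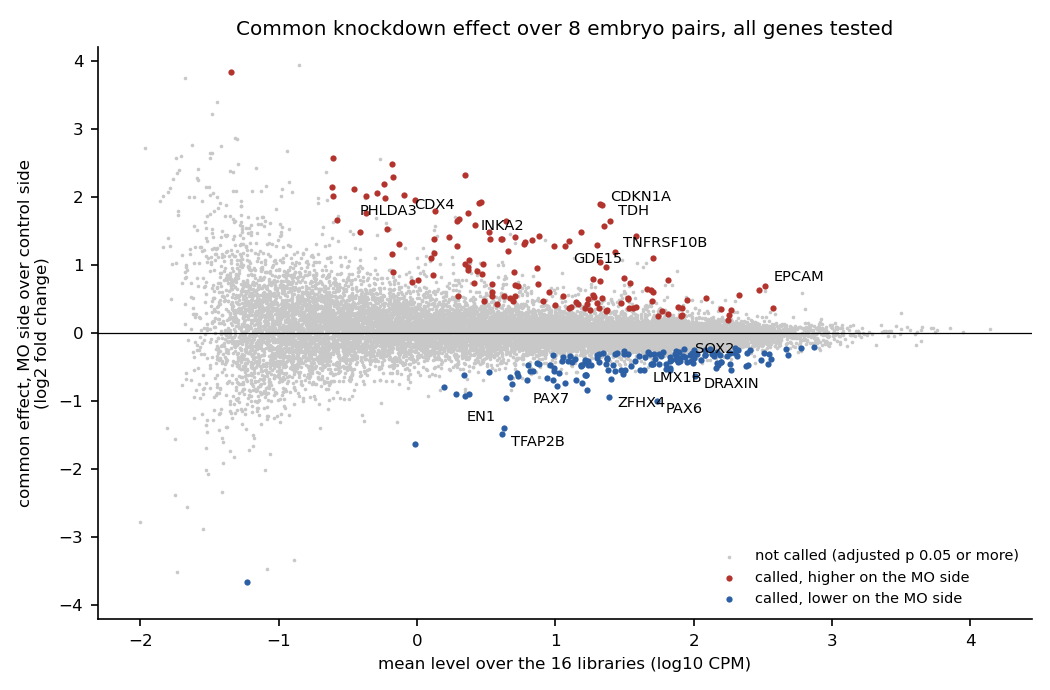
Each point is 1 of 18857 genes, with its mean level over the 16 libraries (log10 CPM, x axis) and its common knockdown effect (log2 fold change of MO side over control side, y axis). Red points are the 135 genes called higher and blue points the 152 called lower; the largest named rises lie above 1 and most falls between 0 and -1.

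The number of called genes depended on the Nanog pairs in particular. Leaving out 1 pair at a time gave 73 called genes without Nanog 1, 94 without Nanog 2, 92 without Nanog 3, 157 without Nanog 4, 191 without PouV 1, 246 without PouV 3, 212 without Klf4 1 and 275 without Klf4 3. All 287 genes kept their sign in each of these 8 fits. With no Nanog pairs, edgeR called 0 genes, 1286 genes had an unadjusted p-value under 0.05, and 285 of the 287 kept their sign. All 8 pairs had helped to call these genes, so the kept signs follow in part from the call. Without the pair as a block, 24 genes were called, all of them higher, and with DESeq2's Wald test 795 were called, 365 higher and 430 lower.

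None of the 3 targeted mRNAs passed the test in the common fit, which also holds the pairs where another factor was blocked. NANOG was at 3.57, 6.89 and 12.5 CPM (lowest, median and highest) in the 8 control libraries and at 4.58, 7.22 and 16.01 CPM in the 8 MO libraries. Its ranges overlapped, and the log2 fold change was 0.18 (standard error 0.155, adjusted p = 0.612). PouV, listed as Pou5f3, was far more abundant, at 717, 849 and 1150 CPM on the control side and 567, 818 and 1519 CPM on the MO side. Its log2 fold change was 0.03 (standard error 0.116, adjusted p = 0.932), with 4 pairs higher and 4 lower, and it turned negative without PouV 1, PouV 3 or Klf4 1. KLF4 was at 4.73, 6.98 and 8.18 CPM on the control side and 3.92, 6.34 and 7.77 CPM on the MO side, with a change of -0.13 on the log2 scale (standard error 0.0986, adjusted p = 0.555). In the pairs where the gene itself was targeted, the log2 effect was 0.06 for NANOG (standard error 0.234) and -0.16 for KLF4 (standard error 0.209). Pou5f3 was higher in both PouV pairs, with an effect of 0.47 (standard error 0.172, adjusted p = 0.27 in the edgeR test), against -0.24 in the Nanog pairs. A translation blocking MO acts on the protein, and these mRNA levels do not measure how much protein was left.

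The gene with the largest rise by the naming rule was CDKN1A (ENSGALG00000028318), which encodes p21, an inhibitor of cyclin-dependent kinases. CDKN1A was at 4.43, 8.81 and 18.02 CPM in the control libraries and at 15.0, 32.4 and 53.5 CPM in the MO libraries. The lowest MO library, PouV MO 1, was within the control range, and the other 7 were above every control. The log2 fold change was 1.87 (standard error 0.229, adjusted p = 0.00351), and the effect was 2.42 in the Nanog pairs, 1.89 in the PouV pairs and 0.75 in the Klf4 pairs.

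TNFRSF10B, a death receptor of the TRAIL ligand, also rose in all 8 pairs. It was at 9.42, 17.3 and 22.2 CPM in the controls and 22.2, 38.9 and 59.3 CPM in the MO libraries, with 7 of 8 MO libraries above every control. Its log2 fold change was 1.20 (standard error 0.116, adjusted p = 0.00109). PHLDA3, an inhibitor of AKT signalling, was rare on the control side, at 0.263, 0.456 and 1.62 CPM, and was at 1.26, 2.11 and 2.48 CPM on the MO side. PHLDA3 rose by a change of 1.80 on the log2 scale (standard error 0.280, adjusted p = 0.00918), from 2.50 in the Nanog and 2.15 in the PouV pairs to 0.47 in the Klf4 pairs. EDA2R, a receptor of the ectodysplasin family, was at 8.59, 14.1 and 23.2 CPM against 14.7, 31.3 and 55.8 CPM, a change of 0.97 on the log2 scale (standard error 0.122, adjusted p = 0.00396). The ranges of EDA2R overlapped, with 5 of 8 MO libraries above every control.

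SESN1 and CCNG1 were more abundant and changed less. SESN1, a sestrin that restrains TOR signalling, was at 32.6, 39.2 and 44.6 CPM in the controls and 47.2, 61.1 and 82.7 CPM in the MO libraries, so the ranges did not overlap (log2 fold change 0.61, standard error 0.0792, adjusted p = 0.00396). CCNG1, cyclin G1, was at 138, 174 and 210 CPM against 180, 259 and 325 CPM (log2 fold change 0.55, standard error 0.0829, adjusted p = 0.00812). PMAIP1, the pro-apoptotic BH3-only protein NOXA, was higher in 7 of 8 pairs, at 1.36, 1.96 and 2.64 CPM against 1.25, 6.09 and 12.1 CPM. It was uneven, with Klf4 MO 3 below every control and 6 MO libraries above every control (log2 fold change 1.38, standard error 0.265, adjusted p = 0.0255). PMAIP1 lost its call without PouV 1 or any 1 of the 4 Nanog pairs, and its log2 fold change was 0.54 with no Nanog pairs.

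**Figure D2:**
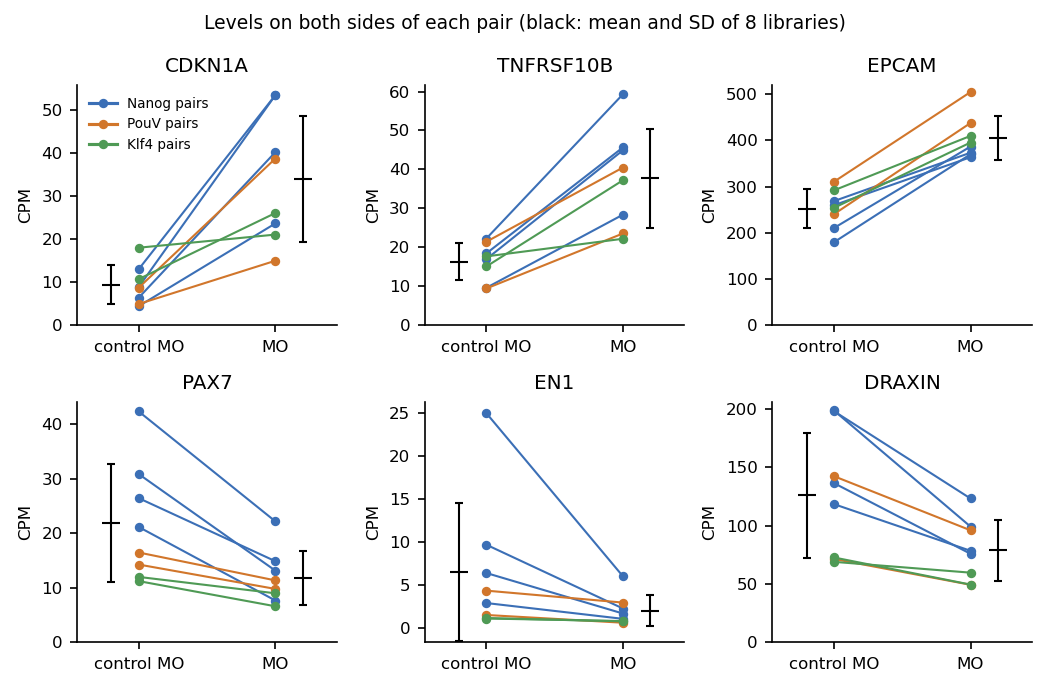
Levels (CPM, y axis, linear) of 6 genes on the control MO side and the MO side of the 8 pairs; each line joins the 2 sides of 1 pair and black marks give the mean and SD of 8 libraries. CDKN1A, TNFRSF10B and EPCAM were higher on the MO side in all 8 pairs, and PAX7, EN1 and DRAXIN were lower in all 8.

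Of the 7 called genes whose control and MO ranges did not overlap at all, each was higher on the MO side. Such a separation was seen for 9 genes of the 18857 tested (0.0477%), and for 0 genes in the other direction. Besides SESN1 they were EPCAM, INKA2, MOGAT2, GAS6 and 2 genes without a symbol, ENSGALG00000004627 and ENSGALG00000049277. EPCAM, an epithelial adhesion molecule, was at 180, 257 and 310 CPM in the controls and 364, 391 and 505 CPM in the MO libraries. The common effect was 0.70 on the log2 scale (standard error 0.0679, adjusted p = 0.00109), with 0.72 in the Nanog, 0.78 in the PouV and 0.56 in the Klf4 pairs. EPCAM was the 1 member of 20 non-neural ectoderm and placode genes that was called, beside 1.52% of all genes tested. The median of that list was 0.05, with 12 of the 20 above 0 and 8 below, among them CDH1 (-0.13, adjusted p = 0.572) and DLX5 (-0.09, adjusted p = 0.684). KRT18 and KRT7, simple epithelial keratins, had log2 fold changes of 0.61 (adjusted p = 0.0948) and 0.58 (adjusted p = 0.134) without passing.

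INKA2, which acts on the actin cytoskeleton through PAK kinases, was at 1.84, 4.74 and 5.36 CPM in the controls and 5.85, 11.1 and 18.1 CPM in the MO libraries (log2 fold change 1.42, standard error 0.146, adjusted p = 0.00129). MOGAT2, an enzyme of triglyceride synthesis, was at 1.38, 4.17 and 5.11 CPM against 6.05, 8.70 and 15.7 CPM (log2 fold change 1.36, standard error 0.157, adjusted p = 0.00322). The effect of MOGAT2 was 1.45 in the Klf4 pairs, next to 1.60 in the Nanog and 0.78 in the PouV pairs. GAS6, a ligand of the TAM receptor tyrosine kinases, was at 11, 13.2 and 17.0 CPM against 19.2, 26.7 and 42.2 CPM (log2 fold change 1.04, standard error 0.124, adjusted p = 0.00322).

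The other large rises overlapped in range with the controls. TDH, the mitochondrial threonine dehydrogenase that mouse embryonic stem cells depend on, was at 5.22, 11.7 and 16.4 CPM against 12.4, 32.2 and 68.1 CPM, with 7 of 8 MO libraries above every control. It rose by a change of 1.64 on the log2 scale (standard error 0.254, adjusted p = 0.00918), with 2.31 in the Nanog, 1.48 in the PouV and 0.45 in the Klf4 pairs. GDF15, a stress-induced secreted factor of the TGF-beta superfamily, was at 3.60, 6.93 and 9.93 CPM against 6.38, 16.1 and 26.0 CPM (log2 fold change 1.27, standard error 0.176, adjusted p = 0.00532). PROM2, a prominin of epithelial membrane protrusions, was at 1.74, 2.73 and 4.40 CPM against 2.99, 6.45 and 8.14 CPM (log2 fold change 1.21, standard error 0.157, adjusted p = 0.00396). Of the 10 largest rises, 7 had the smallest of their 3 effects in the Klf4 pairs. The exceptions were MOGAT2, PROM2 and CDX4, with their smallest effect in the PouV pairs.

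Of 15 NPB genes tested, 3 fell (PAX7, TFAP2B and ZIC1), 0 rose and 12 did not pass, and the median log2 fold change was -0.23, against 0.01 over all genes. The shares called over all genes tested were 0.806% lower and 0.716% higher. PAX7, a paired box factor required for the avian NC, was at 11.2, 18.8 and 42.4 CPM in the controls and 6.63, 10.6 and 22.2 CPM in the MO libraries. The ranges overlapped, but within each of the 8 pairs PAX7 was lower on the MO side, with log2 ratios from -1.46 to -0.41. The common log2 fold change was -0.84 (standard error 0.111, adjusted p = 0.00396), with -1.11 in the Nanog, -0.54 in the PouV and -0.59 in the Klf4 pairs.

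TFAP2B (AP-2 beta) had the largest fall by the naming rule. It was at 0.782, 4.53 and 17.2 CPM on the control side and 0.293, 1.26 and 6.72 CPM on the MO side, a change of -1.48 on the log2 scale (standard error 0.196, adjusted p = 0.00424), and lower in all 8 pairs. ZIC1, a zinc finger gene of the NPB and dorsal neural plate, was at 3.80, 21.9 and 31.5 CPM against 3.31, 12.8 and 19.9 CPM (log2 fold change -0.62, standard error 0.103, adjusted p = 0.0131). Other NPB factors did not pass. TFAP2A had a log2 fold change of -0.25 (adjusted p = 0.372), MSX1 of -0.23 (adjusted p = 0.583) and PAX3 of -0.17 (adjusted p = 0.623). For MSX1 and TFAP2A the effects within the 3 targets lay apart, at -0.67 and -0.56 in the Nanog pairs and 0.66 and 0.31 in the Klf4 pairs, but the difference did not pass over all genes (adjusted p = 0.409 and 0.473). Between 2 and 3 NPB genes were called with 1 pair left out, and 0 without the block or without the Nanog pairs, where the median of the list was 0.00.

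Of 22 NC genes, 3 fell and 0 rose, beside 0.806% lower and 0.716% higher over all genes tested. Their median log2 fold change was -0.08. DRAXIN, a secreted Wnt antagonist of the premigratory cranial NC, was at 68.9, 127 and 198 CPM against 49.3, 77.1 and 123 CPM. It was lower in all 8 pairs (log2 fold change -0.63, standard error 0.0738, adjusted p = 0.00322). SOX9 and SOX8, SoxE factors of the early NC, had log2 fold changes of -0.54 (standard error 0.0916, adjusted p = 0.0147) and -0.47 (standard error 0.0992, adjusted p = 0.0382), and both were lower in all 8 pairs. SOX9 was at 14.2, 39.9 and 61.6 CPM on the control side and 11.2, 26.7 and 35.1 CPM on the MO side. The NC specifiers FOXD3 and SNAI2 had log2 fold changes of -0.35 (adjusted p = 0.482) and -0.18 (adjusted p = 0.578) with 3 and 4 of 8 pairs higher, and SOX10, still low at 5.51 ± 0.979 CPM (SD, n = 8) in the controls, was at the same mean on the MO side. The count of called NC genes was 1 without Nanog 2 and 2 to 3 without any other single pair.

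Neural plate genes gave the highest number of falls among the tissue lists, with 6 of 23 lower, 0 higher and a median of -0.40. The share called lower over all genes tested was 0.806%. EN1, the engrailed factor of the midbrain and hindbrain boundary, was at 1.104, 3.62 and 24.9 CPM in the controls and 0.617, 1.38 and 5.999 CPM in the MO libraries. The level of EN1 varied widely between pairs, but EN1 was lower in all 8 pairs (log2 fold change -1.39, standard error 0.207, adjusted p = 0.00808). LMX1B, a LIM homeobox gene of the same region, had the smallest p-value of all falls. It was at 32.2, 47.6 and 75.3 CPM against 23.0, 35.6 and 52.8 CPM (log2 fold change -0.54, standard error 0.0638, adjusted p = 0.00322), with -0.57, -0.66 and -0.36 in the Nanog, PouV and Klf4 pairs.

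PAX6, an eye and forebrain factor, was at 4.05, 91.2 and 136 CPM against 4.27, 34.0 and 94.0 CPM and was lower in 7 of 8 pairs (log2 fold change -0.99, standard error 0.153, adjusted p = 0.00918). Klf4 pair 3, the exception, had the lowest level on both sides. The SoxB1 genes SOX2 and SOX1, which mark neural progenitors, fell by 0.42 (standard error 0.0829, adjusted p = 0.027) and 0.74 (standard error 0.152, adjusted p = 0.0337) on the log2 scale. ZEB2, a zinc finger repressor of the neural plate and NC, fell by 0.44 (standard error 0.089, adjusted p = 0.0313). The remaining 17 genes did not pass, among them OTX2 at -0.20 (adjusted p = 0.189), SOX3 at -0.27 (adjusted p = 0.258) and WNT1 at -0.49 (adjusted p = 0.215). With 1 pair left out, 3 (without Nanog 1 or Nanog 4) to 6 of these genes were called, and 0 without the block.

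**Figure D3:**
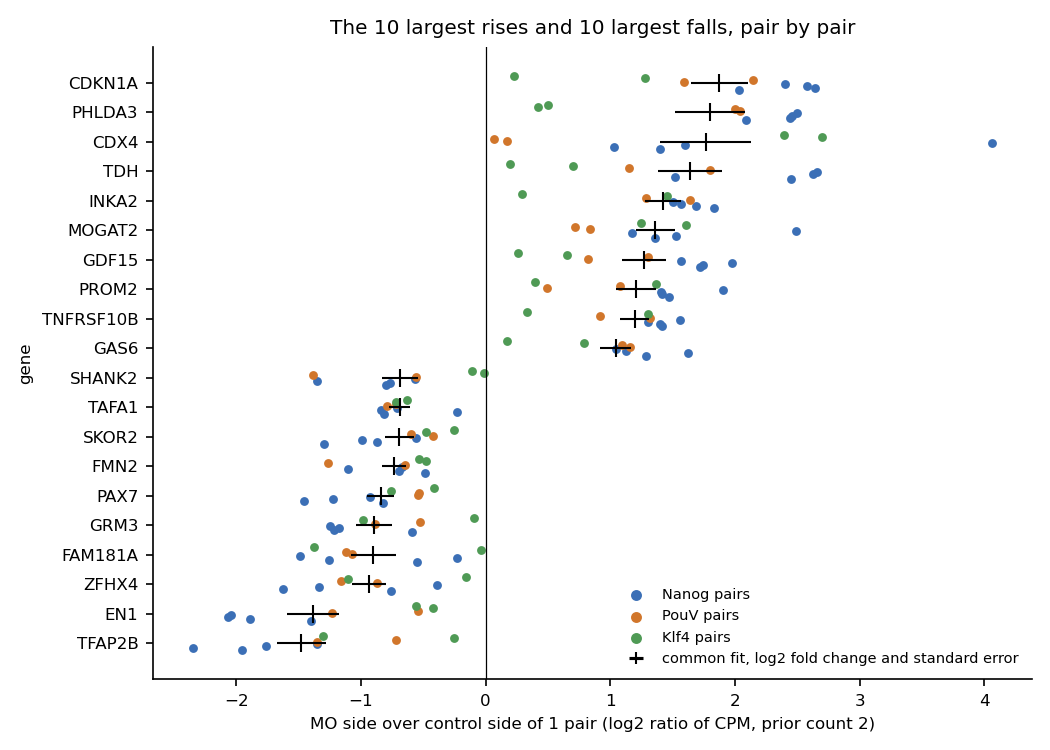
Log2 ratio of MO side over control side (x axis) in each of the 8 pairs for 10 rises and 10 falls (y axis), those with the largest fold changes among genes that were called, had a symbol, averaged 1 CPM or more and moved 1 way in all 8 pairs; coloured points are pairs and black marks the common log2 fold change with its standard error. For CDKN1A the pairs ran from 0.22 to 2.64, with the Klf4 pairs lowest.

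The other genes with the largest falls by the rule were not members of these tissue lists. ZFHX4, a zinc finger homeobox factor, was at 8.14, 34.0 and 51.5 CPM in the controls and 7.28, 14.2 and 39.4 CPM in the MO libraries (log2 fold change -0.94, standard error 0.139, adjusted p = 0.00794). FMN2, an actin-nucleating formin, was at 7.10, 13.2 and 22.5 CPM against 4.88, 8.41 and 14.1 CPM (log2 fold change -0.74, standard error 0.0983, adjusted p = 0.00428). TAFA1, a small secreted chemokine-like protein, had a change of -0.69 on the log2 scale (standard error 0.0836, adjusted p = 0.00351) with nearly equal effects of -0.65, -0.76 and -0.69 in the Nanog, PouV and Klf4 pairs. GRM3, a metabotropic glutamate receptor, and SKOR2, a transcriptional corepressor, had log2 fold changes of -0.90 (adjusted p = 0.0121) and -0.69 (adjusted p = 0.0135). SHANK2, a synaptic scaffold, had -0.69 (adjusted p = 0.0371), with -0.06 in the Klf4 pairs, and FAM181A had -0.90 (adjusted p = 0.0301). With single pairs left out, SHANK2 lost its call without any Nanog or PouV pair. FAM181A lost it without Nanog 1, Nanog 2, Nanog 4, PouV 1, PouV 3 or Klf4 3, and SKOR2 without Nanog 2.

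Of 25 genes of the pluripotency network, 1 rose and 2 fell, with a median log2 fold change of -0.13 and 20 of the 25 below 0. Among all genes tested, 1.52% were called and 51.6% had a log2 fold change above 0. KLF2, a Krüppel-like factor related to KLF4, was at 1.06, 2.48 and 4.54 CPM in the controls and 1.81, 3.97 and 6.75 CPM in the MO libraries (log2 fold change 0.72, standard error 0.121, adjusted p = 0.0139). LIN28A, an RNA-binding protein that blocks let-7 processing, was abundant, at 507, 656 and 715 CPM against 428, 549 and 654 CPM, and lower in all 8 pairs (log2 fold change -0.21, standard error 0.0455, adjusted p = 0.0386). The third called gene was SOX2. DNMT3B (log2 fold change -0.19, adjusted p = 0.0704) and SALL4 (-0.18, adjusted p = 0.0956) did not pass. The medians of the list were -0.22 in the Nanog, -0.19 in the PouV and 0.00 in the Klf4 pairs. The count of calls was 1 without Nanog 1, Nanog 3, Nanog 4 or Klf4 1. LIN28A kept its call without PouV 3 and lost it without any other single pair.

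Genes of chromosome condensation and the spindle were shifted slightly down. Of 49 condensin, cohesin and spindle genes, 3 fell, 0 rose and 44 had a log2 fold change below 0, with a median of -0.15. For comparison, 0.806% of all genes tested were called lower and 51.6% had a log2 fold change above 0. MKI67, the proliferation marker Ki-67, was at 212, 265 and 329 CPM in the controls and 135, 228 and 265 CPM in the MO libraries (log2 fold change -0.30, standard error 0.0654, adjusted p = 0.0422). NCAPH, a condensin I subunit, had a change of -0.24 on the log2 scale (standard error 0.0505, adjusted p = 0.039), and BUB1B, the spindle checkpoint kinase BubR1, of -0.33 (standard error 0.0758, adjusted p = 0.0483). All 3 were lower in all 8 pairs. Of 46 G2/M genes, MKI67 alone was called and the median was -0.13, and of 41 S phase genes 0 were called, with a median of -0.09. Of 77 DNA repair genes 0 were called, with a median of -0.08, and POLE, the catalytic subunit of DNA polymerase epsilon, came closest (log2 fold change -0.23). MKI67 kept its call without Nanog 4 or PouV 3 and lost it without any other single pair. PouV pair 3 had the lowest median of these lists, at -0.46 for condensin, cohesin and spindle and -0.48 for G2/M genes. Without that pair, 4 condensin, cohesin and spindle genes were called and their median was -0.10. The count was 1 without Nanog 4, PouV 1 or Klf4 3, and 0 without Nanog 1, Nanog 2, Nanog 3 or Klf4 1. Small shifts down were not particular to the lists of this paragraph. Of 54 chromatin regulators, 7 had a log2 fold change above 0 (median -0.10), and of 23 cholesterol synthesis genes 3 did (median -0.11).

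Posterior genes were among the largest relative rises at low levels. Of 25 retinoic acid and HOX genes, 3 rose (HOXB4, CDX4 and HOXB3) and 1 fell (CYP26A1), with a median of 0.20. The shares called over all genes tested were 0.716% higher and 0.806% lower. CDX4, a caudal-type homeobox factor of the posterior embryo, was at 0.0657, 0.669 and 2.17 CPM in the controls and 0.363, 1.35 and 11.4 CPM in the MO libraries. It was higher in all 8 pairs (log2 fold change 1.76, standard error 0.364, adjusted p = 0.0342), but only slightly in the PouV pairs, at 0.12, against 1.91 in the Nanog and 2.58 in the Klf4 pairs. HOXB4 and HOXB3, factors of the caudal hindbrain and spinal cord, were each higher in 7 of 8 pairs. Their highest levels were in Klf4 MO 3, at 3.33 and 6.75 CPM, and the partner of that library was the highest control, at 0.63 and 2.67 CPM. For both genes the MO libraries above every control were Klf4 MO 1 and Klf4 MO 3. The log2 fold changes were 2.06 (standard error 0.416, adjusted p = 0.0311) for HOXB4 and 1.17 (standard error 0.265, adjusted p = 0.0479) for HOXB3. CYP26A1, an enzyme that degrades retinoic acid, was at 41.8, 210 and 289 CPM against 36.6, 148 and 203 CPM (log2 fold change -0.47, standard error 0.0907, adjusted p = 0.0265). CDX2 (log2 fold change 1.46, adjusted p = 0.0593) and ALDH1A2, which makes retinoic acid (1.07, adjusted p = 0.12), did not pass. The 4 calls became 0 without Nanog 1, Nanog 3 or Klf4 1, and 2 without Nanog 4 or PouV 1. CDX4 and HOXB4 were not called without Nanog 2, and CDX4, HOXB4 and HOXB3 were not called without Klf4 3.

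Marker lists of other germ layers were read as a check on the dissected tissue. They stand beside 1.52% called and 51.6% with a log2 fold change above 0 over all genes tested. Of 13 endoderm genes, 12 had a log2 fold change above 0 with a median of 0.51, and 1 rose, APOA1, an apolipoprotein, from 103, 175 and 689 CPM to 178, 304 and 832 CPM (log2 fold change 0.64, standard error 0.131, adjusted p = 0.0335). APOA1 was not called without Nanog 1, Nanog 2, Nanog 3 or PouV 3. The summed level of the list was 2069 to 3285 CPM on the control side and 2387 to 3700 CPM on the MO side and was higher in 7 of 8 pairs. CLDN1, which is not restricted to endoderm, made up most of it. None of the 13 genes was at 0, and the definitive endoderm factor SOX17 was at 3.12 to 14.4 CPM in the controls and 5.69 to 20.4 CPM in the MO libraries (log2 fold change 0.66, adjusted p = 0.271). The median ratio of the list was 2.43 in pair Nanog 4 and between 0.10 and 0.86 in the other 7 pairs. Of 18 mesoderm genes, 16 were above 0 with a median of 0.23 and a summed level of 615 to 928 CPM and 642 to 938 CPM on the control and MO sides, and the single call was the fall of CYP26A1. TBXT, the mesodermal T-box factor Brachyury, was at 64.6 ± 33.0 CPM on the control and 64.0 ± 36.4 CPM on the MO side (SD, n = 8 each).

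Of 11 blood and endothelium genes, 11 were above 0, beside 51.6% of all genes tested. Their median was 0.28 with 0 called, at summed levels of 212 to 506 CPM and 209 to 506 CPM. The globin genes HBA1 and HBBR were at mean levels of 0.143 and 0.087 CPM in the controls. Of 8 left-right genes and 6 notochord and floor plate genes, 0 were called, with medians of 0.15 and -0.10. Of 3 W-linked genes, which follow the sex makeup of a pool, 0 were called and the median was -0.01. Within single pairs their median log2 ratio was -0.946 in Nanog 2, -0.319 in Nanog 1, 0.314 in Nanog 4 and 0.409 in PouV 1. In the other pairs it lay between 0.0265 and 0.125. Both sides of the same embryos share their sex makeup, and the cause of these differences was not tested. The part of other tissues in the genes called here was not tested.

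**Figure D4:**
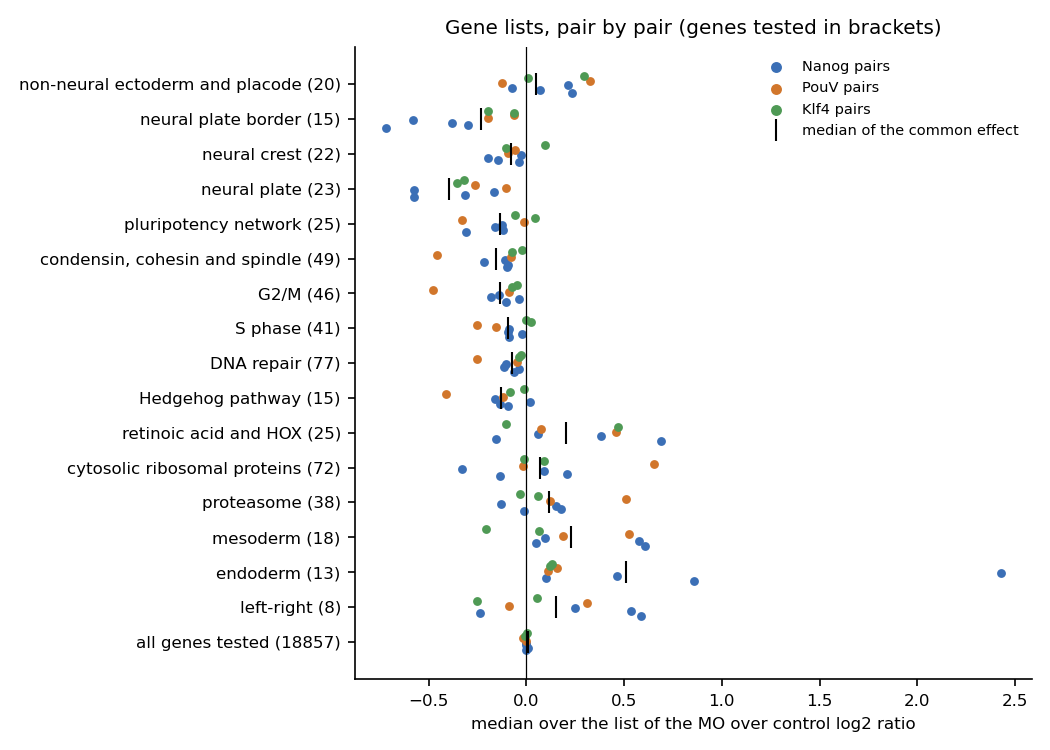
Median over a gene list of the log2 ratio of MO side over control side (x axis) in each of the 8 pairs (points) and in the common fit (black marks) for 16 lists and all genes tested (y axis). Neural plate medians were below 0 in all 8 pairs, and the endoderm median of pair Nanog 4 was 2.43.

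Signalling lists were read beside the 1.52% of all genes tested that were called. In the Wnt pathway, 2 of 44 genes fell, the secreted antagonist FRZB (log2 fold change -0.46, standard error 0.0692, adjusted p = 0.0083) and the receptor FZD3 (-0.36, standard error 0.0582, adjusted p = 0.0121), and 0 rose. FRZB was at 264, 377 and 516 CPM in the controls and 198, 287 and 437 CPM in the MO libraries. In the FGF pathway, 1 of 24 genes rose, FGF12, an intracellular FGF homologous factor (0.50, adjusted p = 0.0269), and 1 fell, the receptor FGFR1. FGFR1 was at 714, 783 and 868 CPM against 616, 678 and 769 CPM, a small but regular difference (log2 fold change -0.21, standard error 0.0441, adjusted p = 0.0356) with 6 of 8 MO libraries below every control. In the Notch pathway, 1 of 22 genes fell, the feedback regulator NRARP (-0.54, adjusted p = 0.0337), which was not called without PouV 3 or any 1 of the 4 Nanog pairs. Of 15 Hedgehog and 35 BMP and TGF-beta pathway genes 0 were called, with medians of -0.13 and 0.06. The Hedgehog effectors GLI2 (-0.32, adjusted p = 0.0506) and GLI3 (-0.40, adjusted p = 0.0569) came closest.

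Among 42 adhesion and extracellular matrix genes, NID2, a basement membrane nidogen, fell (-0.32, adjusted p = 0.0157), as did ZEB2. Among 32 apical constriction and actin genes, CELSR1, a planar polarity cadherin, fell (-0.46, adjusted p = 0.0265) and MYL9, a myosin light chain, rose (0.34, adjusted p = 0.0396). Their medians were both -0.02. The counts of these lists and of the FGF list were 0 without Nanog 1, Nanog 2 or Nanog 3. Without Nanog 4 they were 1 for the adhesion list and 0 for the others, and without PouV 1, Klf4 1 or Klf4 3 the FGF and the actin lists each had 1.

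The lists of general stress and of cell maintenance given from here on held at most 2 calls each, beside 1.52% called over all genes tested. In the innate and interferon response list, PARP14 rose (0.43, adjusted p = 0.0454) and NFKB1 fell (-0.30, adjusted p = 0.0396), of 30 genes with a median of 0.08, and the count was 0 without Nanog 1, Nanog 2, Nanog 3, PouV 1, Klf4 1 or Klf4 3 and 1 without Nanog 4 or PouV 3. In the integrated stress response, 1 of 20 genes fell, the secreted glycoprotein STC2 (-0.45, adjusted p = 0.0485), and among 27 genes of the apoptosis machinery PMAIP1 alone was called, with medians of -0.05 and 0.02. STC2 was called with PouV 1 left out and lost its call without any other single pair. Of 21 heat shock, 19 ER chaperone, 20 immediate early, 31 glycolysis and hypoxia, 23 cholesterol synthesis, 46 splicing, 54 chromatin regulator and 27 histone genes, 0 were called, with medians from -0.11 to 0.09.

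Of 72 cytosolic ribosomal protein genes 0 were called and 67 were above 0, beside 51.6% of all genes tested, with a median of 0.07. PouV pair 3 had a median of 0.65, and without that pair the median was -0.02. Mitochondrial ribosomal proteins (71 genes), oxidative phosphorylation (72) and mitochondrially encoded genes (11) gave 0 calls and medians of 0.05, 0.06 and 0.05. In PouV pair 3 the mitochondrial ribosomal median was 0.40 and the oxidative phosphorylation median 0.53, and without that pair they were 0.00 and -0.01. The proteasome list gave 1 call of 38, the lid subunit PSMD12 (0.19, adjusted p = 0.0454), with a median of 0.12. PSMD12 kept its call without PouV 3 and lost it without any other single pair. The proteasome median was 0.51 in PouV pair 3 and 0.04 without that pair. Of 42 genes of the nucleolus and ribosome biogenesis, WDR3, a factor of the small subunit processome, rose (0.35, standard error 0.059, adjusted p = 0.0146), and the median was 0.04. WDR3 lost its call without Nanog 1.

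The 3 targets were then compared with each other in the same model. Each target was a separate experiment with its own controls, so target and experiment cannot be told apart. The study describes an apparent batch effect in these data. The effects differed between targets for 1 of the 18857 genes (0.0053%), CRYGN, and 1450 genes (7.69%) had an unadjusted p-value under 0.05. Among the 287 genes called in the common fit, 74 had such an unadjusted p-value. The few pairs per target limit this test, so a gene that did not pass need not respond alike to the 3 targets. CRYGN, a crystallin, was at 0.461, 0.958 and 1.38 CPM in the controls. It was at 4.24 CPM in PouV MO 1 and 15.1 CPM in PouV MO 3, and between 0.478 and 1.09 CPM in the other 6 MO libraries. The effects were 3.15 in the PouV, -0.25 in the Nanog and 0.10 in the Klf4 pairs (adjusted p = 0.0397 for the difference). The next genes by p-value that met the naming rule, LAMB2, GRSF1, PHLDA3 and ZFAND2A, each had an adjusted p-value of 0.222. With 1 pair left out, the number of genes that differed was 0, except without PouV 1, where it was 1.

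Within the same model, 268 genes were called for the Nanog pairs (1.42%, with 0.843% higher and 0.578% lower), 72 for the PouV pairs (0.382%, with 0.233% higher and 0.148% lower) and 0 for the Klf4 pairs, where 835 genes (4.43%) had an unadjusted p-value under 0.05. These counts rest on 4, 2 and 2 pairs of separate experiments and were not tested against each other. Of the 287 commonly called genes, 285 had 1 direction in the 3 targets, against 32.6% of all genes tested. Their sizes differed. The median effect of the genes called higher was 0.99 in the Nanog, 0.78 in the PouV and 0.36 in the Klf4 pairs, and of those called lower -0.45, -0.44 and -0.30. Klf4 pair 3 was the least similar pair: 105 of the 135 genes called higher were higher there, against 130 to 135 in each of the other pairs, and 141 of the 152 called lower were lower, against 144 to 152. The Nanog pairs make up 4 of the 8 pairs that chose these genes, so the values describe them and test nothing.

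As a further description, genes were called in the Nanog pairs alone and read in the other 4 pairs, which have their own controls. The 8 libraries of the Nanog pairs alone gave 312 called genes of the 17841 present in both fits, 170 higher and 142 lower. Of these, 288 (92.3%) had the same direction in the PouV and Klf4 pairs, as had 59.4% of all genes. The genes called higher had a median log2 fold change of 1.01 in the Nanog pairs and 0.42 in the other pairs, and those called lower -0.53 and -0.26. In the other pairs 137 of the 312 (43.9%) had an unadjusted p-value under 0.05 in the same direction, against 7.04% of all genes with such a p-value in either direction. In the other 4 pairs by themselves, edgeR called 0 genes over all genes tested, as given above. This split was chosen after seeing the data. Genes that vary together are not independent, so these shares describe the pairs and test nothing.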

How the data were processed

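Bulk RNA was sequenced from both sides of electroporated chicken embryos. The deposited counts are whole reads per gene, which the authors made with STAR 2.7.2a on GRCg6a according to the submitters' processing notes; the aligner settings are not given in the sources used here. The deposited signal table, the authors' TMM-scaled values, served only for gene names, as it pairs 12467 of the tested gene IDs with symbols. RefSeq gave 1200 more, and 5190 tested genes kept their ID. The filtered count table was not used.

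A gene was tested if any of the 16 paired libraries held over 5 of its reads (18857 of 24356). Counts were scaled by TMM and fitted with edgeR 4.0.16 (quasi-likelihood test, limma 3.58.1, R 4.3.3) with the pair as a block and 1 knockdown term. P-values were adjusted by Benjamini-Hochberg over all genes tested, with 0.05 as threshold. Ratios within a pair used log2 CPM with a prior count of 2. The effects within targets and their difference came from the same model with 1 term per target. Strand-specific counting is not given in the sources used here, so overlapping genes and near-identical copies may share reads. Depth was 31215191 to 44726348 reads per library; without molecular identifiers, reads are not independent molecules.

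The study's design makes both sides of the same embryos partners. The labels give replicate numbers but do not name the embryos, so pairing by equal numbers is an assumption. For its own test, the study compared each knockdown with all controls. Deviations of partners from their group means correlated at 0.627, 0.65, 0.547 and -0.01 for Nanog 1 to 4, and at 0.661 and 0.718 for the PouV and Klf4 pairs, where groups of 2 are mirror images. The control library of Nanog 4 correlated more with another Nanog MO library than with its partner, so this check does not bear out that pair. Among the pairs, the median log2 ratio of the 3 W-linked genes was lowest in Nanog 2, at -0.946, and highest in PouV 1, at 0.409.

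The named genes were the 3 targets, the 10 called genes with the highest and the 10 with the lowest fold change that had a symbol, averaged 1 CPM or more and moved 1 way in 8 pairs, up to 4 called members of each list (the nearest 2 where none was called; not all are printed), and the 5 genes of smallest p-value for the difference between targets. Other list members and genes given with values that did not pass, and those of the closing section, were chosen after their values were seen. S phase and G2/M lists came from Seurat 5.3.0. The libraries, lists and rule were chosen with earlier results of these data known. Alternatives were RLE scaling, DESeq2 1.42.0, other filters, no block, 1 RUVs factor, equal weights, and leaving out each pair or target. On simulated counts for 18428 genes, 100% of genes changed by a log2 fold change of 1 and 74% of those changed by 0.5 were called, with 11 of 18228 unchanged genes. The changed genes had 1 CPM or more and the same effect in every pair, and the dispersion came from the trend over all genes alone. Effects in the measured data differed in size between targets, so these shares need not hold there. The authors used DESeq2, edgeR and limma themselves, in roles that are not used here. Some of the results computed are not reported here.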

Additional observations from a re-analysis of the deposited data

Results flagged for a closer look

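Of 64 sets of 8 pair values that were checked, 8 held 1 pair far from the other 7, and chance alone flags about 1 in 20 such groups. PouV pair 3 was the distant pair in 5 of them, with a list median of -0.251 for DNA repair, -0.458 for condensin, cohesin and spindle, -0.499 for the integrated stress response, -0.414 for the Hedgehog pathway and -0.48 for G2/M genes. Its library PouV MO 3 also stood apart from the others in the principal components. Pair Nanog 4 was distant for the endoderm list, with a median of 2.43. For 2 single genes, a pair lay closer to 0 than the others: INKA2 at 0.2879 in Klf4 pair 3 and TAFA1 at -0.2272 in Nanog pair 2.

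CRYGN was singled out because its effect differed between the 3 targets (adjusted p = 0.03968, edgeR quasi-likelihood test), with a high level in both PouV MO libraries.

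CDX4 was singled out in the libraries that had no partner and entered no comparison. All 3 of them were above the 8 control libraries, at 3.198 CPM in PouV MO 4, 6.044 CPM in Klf4 MO 2 and 7.492 CPM in Klf4 MO 4, against at most 2.18 CPM in the controls. Of the other 9 largest rises, 8 had 2 of the 3 libraries above the controls, with Klf4 MO 4 within the control range, and MOGAT2 had 0. Of the 10 largest falls, 8 had 0 of the 3 below the controls, and EN1 and SHANK2 had 1 each. These values were scaled over all 19 libraries. The control range spans the 3 experiments, whose levels differ. Beside the Klf4 controls alone, Klf4 MO 2 and Klf4 MO 4 were both higher for TFAP2B, FAM181A, GRM3 and PAX7, against the direction of the fall. TFAP2B was at 4.801 and 3.244 CPM there, and at 0.782 and 0.7995 CPM in the Klf4 controls as scaled for the fit. Only EN1 was below both Klf4 controls, in Klf4 MO 4.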

How the results depend on the processing

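The main count of 287 genes (135 higher, 152 lower) was 294 with RLE scaling, 290 with another low-count filter and 267 with equal weights for the targets. It moved to 795 with DESeq2 (365 higher, 430 lower), 375 with no filter, 24 with no replicate block (24 higher, 0 lower), 142 with the replicate block and 1 RUVs factor (80 higher, 62 lower), 156 with no PouV pairs (65 higher, 91 lower) and 0 with no Nanog pairs (0 in each direction). With 1 pair left out it ranged from 73 to 275, from 39 to 140 higher and from 34 to 135 lower. The number of genes that differed between targets was 115 with DESeq2's likelihood ratio test, 0 with the other filter, 2 with no filter, 0 with the RUVs factor and 0 to 1 with 1 pair left out. Of 360 values of the 20 genes with the largest changes under 18 alternatives, 302 kept their call, 58 lost it and 0 changed sign. These 20 genes were chosen as called and moving 1 way in every pair. Their kept signs therefore follow largely from that choice and do not test it. Of the 287 called genes, 285 kept their sign with no Nanog pairs, though the PouV and Klf4 pairs had helped to choose these genes. Among the genes named by the rule, signs turned for 6 that were not called in the common fit. With no PouV pairs these were Pou5f3 (-0.12), HINTW (-0.104), CRYGN (-0.125), LAMB2 (-0.244) and GRSF1 (0.044), and with no Nanog pairs FOXJ1 (-0.0756). With 1 pair left out, Pou5f3 ranged from -0.0458 to 0.114, HINTW from -0.0163 to 0.198 and LAMB2 from -0.11 to 0.107. The causes were not tested. Only 2 pairs each for PouV and Klf4 limit what can be said of these targets alone.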

Other observations

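Called genes outside the lists included several that act in neurons. They were chosen after their values were seen and are given as a description. Genes of this kind were not counted among all genes tested or among the rises, so no change of neuronal genes as a group was tested. CNTN2, an axonal adhesion molecule, was at 285 ± 62.3 CPM (SD, n = 8) on the control side and 208 ± 53.6 CPM on the MO side (log2 fold change -0.47, adjusted p = 0.0422 by edgeR's quasi-likelihood test). ASTN1, an astrotactin of neuronal migration, was at 217 ± 52.0 CPM and 152 ± 41.5 CPM (-0.54, adjusted p = 0.00962), and RGMA, a repulsive guidance molecule, at 168 ± 38.9 CPM and 126 ± 33.3 CPM (-0.44, adjusted p = 0.0127). All 3 were lower in 8 of 8 pairs. DPYSL2, which binds tubulin in growing axons, had a log2 fold change of -0.30 (adjusted p = 0.00617), also lower in 8 of 8 pairs. MAP2, a dendritic microtubule protein, was lower in 6 of 8 pairs (-0.54, adjusted p = 0.0499).

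Among rises outside the lists, DGAT2, which like MOGAT2 acts in triglyceride synthesis, was at 15.0 ± 1.15 CPM on the control side and 22.3 ± 3.16 CPM on the MO side (log2 fold change 0.56, adjusted p = 0.00396), higher in 8 of 8 pairs. ADAM12, a membrane metalloprotease, was at 50.1 ± 21.0 CPM and 80.9 ± 14.6 CPM (0.77, adjusted p = 0.027), higher in 8 of 8 pairs. CLDN3, a claudin of tight junctions, was at 101 ± 33.6 CPM and 144 ± 46.7 CPM (0.51, adjusted p = 0.0474), higher in 8 of 8 pairs.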
